A study of Mus musculus with 8 samples.

Results

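The genes described here are the 8 protein-coding genes that lie beside Adipoq, the adiponectin gene, on mouse chromosome 16: Ahsg, Fetub, Hrg, Kng2, Kng1, Eif4a2 and Rfc4 before it and St6gal1 after it. They were taken by name from the 54385 rows of the deposited count table, to see whether genes next to Adipoq differ in mice that carry an Adipoq-Cre. All 8 passed the filter on low counts, as did 14553 genes in all. Polyadenylated RNA of brown fat was sequenced in 8 libraries, all from C57BL/6N mice aged 20 weeks and fed chow. The knockout group, cKO, had 4 libraries with the genotype Adcy3-FL/FL/Adipoq-wt/cre, in which an Adipoq-driven Cre recombinase removes floxed Adcy3, an adenylyl cyclase gene, in adipocytes. The control group, WT, had 4 libraries by title: 3 carry Adcy3-FL/FL/Adipoq-wt/wt, while the genotype entry of WT replicate 4 is Adcy3-FL/FL/Adipoq-wt/cre, the same as in cKO. Every mouse therefore carried the floxed Adcy3 alleles. Because the Cre and the loss of Adcy3 come together in cKO, the effects of the Cre allele and of Adcy3 loss cannot be told apart by this comparison. The sample labels name interscapular tissue and the design text inguinal tissue.

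Cre drivers are often made by inserting a large piece of genomic DNA, in which Cre replaces the start of a gene and neighbouring genes can be carried along as extra copies. Others are made by placing Cre into the gene itself. The labels do not say how this Adipoq-Cre allele was made. Most of the genes before Adipoq encode plasma proteins made chiefly by the liver: Ahsg (fetuin-A) binds mineral and limits calcification, Fetub (fetuin-B) inhibits a protease of the egg, Hrg is histidine-rich glycoprotein, and Kng1 and Kng2 encode kininogens, the precursors of bradykinin. Between them and Adipoq lie 2 genes of general cell function, Eif4a2, an RNA helicase of translation initiation, and Rfc4, a subunit of the clamp loader that places PCNA on DNA. St6gal1, on the other side, encodes an enzyme that caps glycoproteins with sialic acid.

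In GRCm38, Adipoq (ENSMUSG00000022878) lies on chromosome 16 at 23146536 to 23158028, plus strand. Rfc4 (ENSMUSG00000022881, 23113943 to 23127737, minus strand) starts 18.8 kb before the start of Adipoq, and Eif4a2 (ENSMUSG00000022884, 23107444 to 23114136, plus strand) 39.1 kb before it. The ends of these genes overlap by 194 bases on opposite strands, and since the strand setting of the counting is not given, reads from that stretch could belong to either. Kng1 (ENSMUSG00000022875, 23057865 to 23082078, plus strand) starts 88.7 kb before Adipoq and Kng2 (ENSMUSG00000060459, 22985854 to 23029482, minus strand) 117.1 kb before it. The kininogen genes resemble each other: 30.6% of the 31-base sequences of Kng2 transcripts occur in Kng1, and 26.5% of those of Kng1 in Kng2, so that how reads were divided between them is uncertain. Hrg (ENSMUSG00000022877, 22951072 to 22961656), Fetub (ENSMUSG00000022871, 22918334 to 22939778) and Ahsg (ENSMUSG00000022868, 22891277 to 22899449), all on the plus strand, start 195.5, 228.2 and 255.3 kb before it. St6gal1 (ENSMUSG00000022885, 23224740 to 23360350, plus strand) starts 78.2 kb after it.

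RefSeq start regions of build GRCm38.p6 (250 bases before to 50 after the start) were matched by symbol for 7 of the 8 genes and for Adipoq. The 4 printed here are that of Adipoq, which drives the Cre, and those of the flanking genes whose levels differed most between the groups in the data below, Rfc4, Eif4a2 and Kng2. Capitals mark matches, on either strand and with overlaps counted, to the TATA box TATAAA, the CCAAT box, the cyclic AMP response element core TGACGT or the GC box GGGCGG.
Adipoq, chr16:23146286-23146585, plus strand: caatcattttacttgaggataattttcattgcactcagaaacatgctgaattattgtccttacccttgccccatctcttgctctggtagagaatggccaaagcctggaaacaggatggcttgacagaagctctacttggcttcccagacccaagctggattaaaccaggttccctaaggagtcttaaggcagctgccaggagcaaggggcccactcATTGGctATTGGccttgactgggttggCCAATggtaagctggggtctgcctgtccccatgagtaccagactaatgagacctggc
Rfc4, chr16:23127681-23127980, minus strand: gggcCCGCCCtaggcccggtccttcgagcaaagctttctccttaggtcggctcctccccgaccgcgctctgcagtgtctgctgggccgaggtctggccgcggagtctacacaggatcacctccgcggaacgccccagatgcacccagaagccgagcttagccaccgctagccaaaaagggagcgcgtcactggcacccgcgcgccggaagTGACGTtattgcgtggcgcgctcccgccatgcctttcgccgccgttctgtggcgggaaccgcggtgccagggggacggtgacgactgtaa
Eif4a2, chr16:23107218-23107517, plus strand: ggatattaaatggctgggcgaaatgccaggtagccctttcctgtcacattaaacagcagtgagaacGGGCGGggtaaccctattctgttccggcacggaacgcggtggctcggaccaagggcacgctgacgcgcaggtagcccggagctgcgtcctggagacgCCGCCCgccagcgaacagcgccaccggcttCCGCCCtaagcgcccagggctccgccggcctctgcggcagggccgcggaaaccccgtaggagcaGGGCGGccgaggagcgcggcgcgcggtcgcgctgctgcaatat
Kng2, chr16:23029052-23029351, minus strand: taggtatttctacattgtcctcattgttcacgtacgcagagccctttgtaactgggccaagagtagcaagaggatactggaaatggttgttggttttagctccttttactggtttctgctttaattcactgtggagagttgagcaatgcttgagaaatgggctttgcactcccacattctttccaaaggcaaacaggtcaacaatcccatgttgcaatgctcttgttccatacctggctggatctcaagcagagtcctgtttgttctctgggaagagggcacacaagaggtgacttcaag
The regions are of different kinds. Those of Eif4a2 and Rfc4 hold 36 and 34 CpG pairs, against a median of 7 over 32851 such regions, while those of Kng2 and Adipoq hold 2 and 0. The Adipoq region has 3 CCAAT matches, Eif4a2 has 4 GGGCGG matches, Rfc4 has 1 GGGCGG and 1 TGACGT match, and Kng2 has none of the 4 motifs. Over all regions, 13.6% hold TATAAA, 37.4% CCAAT, 7.51% TGACGT and 35.7% GGGCGG, so a single match is a description only.

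Libraries held 10713043 to 16243318 estimated counts in cKO and 12977094 to 32437214 in WT. Adcy3, the targeted gene, stood at 17.95 to 25.3 CPM (counts scaled to a common library size by TMM) in cKO and 61.7 to 118 CPM in WT. In WT replicate 4 it was at 118 CPM, so that the Adcy3 level of this library goes with its title and not with its genotype entry. Adipoq itself did not separate the groups, with 389 to 664 CPM in cKO and 447 to 639 CPM in WT (log2 fold change -0.02, 95% interval -0.38 to 0.33). The 8 brown adipocyte markers together took 11090 to 14940 CPM in cKO and 12000 to 13880 CPM in WT, and none was at 0 in any library. In bulk tissue, fewer cells of a type and less RNA per cell cannot be told apart. Macrophage markers summed to 19.8 to 43.7 CPM in cKO and 20.4 to 38.3 CPM in WT, B cell and plasma cell markers to 6.89 to 20.1 and 12.8 to 16.1 CPM, and endothelial markers to 357 to 440 and 347 to 567 CPM. The hepatocyte, skeletal muscle and proliferating cell lists are given beside the results they touch.

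By edgeR's quasi-likelihood test over all 14553 genes, 0 of the 8 flanking genes passed an adjusted p of 0.05, against 10 genes (0.0687%) over the whole table. All 8 had a positive log2 fold change, as did 51.8% of all genes, with a median of 0.39 against 0.01 over all genes. At an unadjusted p under 0.05, 3 of the 8 (37.5%) were higher in cKO, namely Rfc4, Eif4a2 and Kng2, and 0 were lower. Of all genes, 2.15% were higher in cKO at that level, and 5.6% passed it in either direction. The 8 genes were chosen with earlier results of these data known, so these shares are a description only. DESeq2 called 1 of the 8 and 0.316% of all genes, edgeR without a count filter called 1 and 0.262%, and limma-voom called 0. The 1 gene was Eif4a2 both times. Of the 8, the 4 genes nearest to Adipoq on the side before it, Rfc4, Eif4a2, Kng1 and Kng2, had log2 fold changes between 0.49 and 0.62, and the next 3, Hrg, Fetub and Ahsg, between 0.14 and 0.28. St6gal1, on the other side, had 0.05. The intervals of Hrg, Fetub and Ahsg, given below, each hold the whole stretch from 0.49 to 0.62, and that of Kng1 holds 0. A step between the nearer and the farther genes is therefore not resolved by these values.

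**Figure D1:**
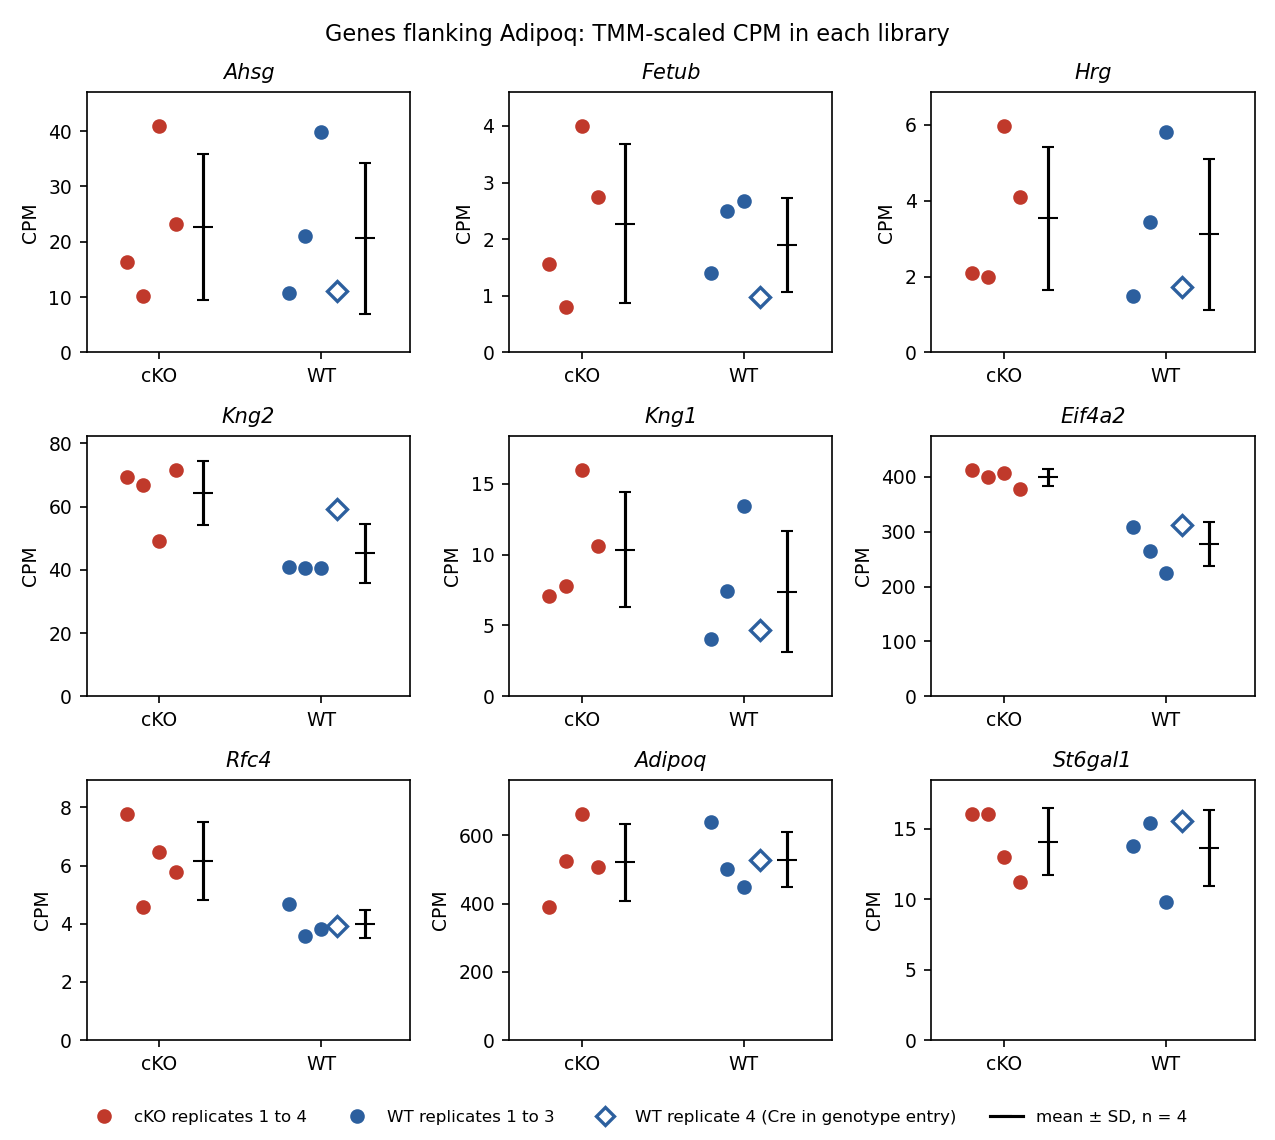
TMM-scaled CPM of the 8 flanking genes and Adipoq in each library, cKO (red) left of WT (blue), with WT replicate 4 as an open diamond and the mean ± SD of 4 libraries in black; each axis starts at 0. Eif4a2 is the one panel in which all cKO libraries, at 377 to 413 CPM, lie above all WT libraries, at 226 to 312 CPM.

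Eif4a2 was the most abundant of the 8 and the one whose groups did not overlap. cKO replicates 1 to 4 held 413, 399.7, 407 and 377 CPM, and WT replicates 1 to 4 held 308, 265, 226 and 312 CPM. The cKO libraries lay close together while WT ranged more widely, with WT replicates 1 and 4 nearest to cKO. Mean levels were 399 ± 15.5 CPM in cKO and 278 ± 40.8 CPM in WT (SD, n = 4 each), a 1.44-fold difference with a 95% interval of 1.20 to 1.73. The log2 fold change was 0.52 ± 0.12 (SE), with an edgeR adjusted p of 0.493 and an unadjusted p of 0.000933. The DESeq2 adjusted p was 0.0112, and that of edgeR without a count filter 0.0384. No overlap with cKO on top was seen for 1.23% of all genes tested, and in either direction for 3.5%. Of its 31-base sequences, 19.6% occur in other genes on either strand, the most with a single gene on the same strand being 5.10% with the predicted gene Gm2999 and on the opposite strand 2.93% with Rfc4.

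Rfc4 had the largest fold change of the 8, from few counts. cKO replicates 1 to 4 held 7.79, 4.59, 6.47 and 5.79 CPM, and WT replicates 1 to 4 held 4.67, 3.57, 3.82 and 3.93 CPM. Of the cKO libraries, 3 lay above every WT library, and cKO replicate 2 fell just under WT replicate 1. The means were 6.16 ± 1.34 CPM in cKO and 4.00 ± 0.470 CPM in WT (SD, n = 4 each), and the log2 fold change was 0.62 ± 0.21 (SE, edgeR adjusted p = 0.867, unadjusted p = 0.00995). Counts ran from 46 to 150 per library. Of its 31-base sequences 10.5% are the reverse complement of Eif4a2 (the gene above). The part of that overlap in the Rfc4 values was not tested.

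Kng2 set 3 WT libraries apart from the rest. cKO replicates 1 to 4 held 69.4, 66.8, 49.2 and 71.6 CPM, and WT replicates 1 to 4 held 40.7, 40.7, 40.4 and 59.3 CPM. WT replicates 1 to 3 averaged 40.6 ± 0.161 CPM (SD, n = 3) and lay under every cKO library, whereas WT replicate 4, the library with the Cre in its genotype entry, lay inside the cKO range, above cKO replicate 3. Counting error alone is wider than that SD: the 569 counts of WT replicate 2 carry an exact Poisson interval of 523 to 618. The summed skeletal muscle markers were 9602, 2787, 128 and 2115 CPM in cKO replicates 1 to 4 and 35.2, 1767, 337 and 7519 CPM in WT replicates 1 to 4. The cKO library lowest in Kng2, replicate 3, was thus the lowest of cKO in muscle markers, and WT replicate 4, the highest of WT in Kng2, was the highest of WT in muscle markers. The other libraries did not rank alike. In cKO, replicate 4 was the highest in Kng2 and replicate 1 the highest in muscle markers. WT replicates 1 to 3 had nearly the same Kng2 level at muscle sums of 35.2, 1767 and 337 CPM. All 8 muscle markers had positive log2 fold changes, with a median of 0.61, and their part in the Kng2 values was not tested. Means were 64.3 ± 10.2 CPM in cKO and 45.3 ± 9.33 CPM in WT (SD, n = 4 each), which edgeR put at 0.51 ± 0.16 on the log2 scale (SE, adjusted p = 0.805, unadjusted p = 0.00695). Without WT replicate 4 the log2 fold change was 0.67 (edgeR adjusted p = 0.354), and with that library counted as cKO it was 0.65 (edgeR adjusted p = 0.664).

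Kng1 varied more within each group than between them. cKO replicates 1 to 4 held 7.05, 7.79, 16.0 and 10.6 CPM, and WT replicates 1 to 4 held 4.04, 7.43, 13.4 and 4.68 CPM. The groups overlapped, and replicate 3 was the highest library in both. On the log2 scale cKO lay 0.49 ± 0.43 above WT (SE; 95% interval -0.49 to 1.47; edgeR adjusted p = 0.917). It was 0.20 without cKO replicate 3, 0.96 without WT replicate 3, 0.28 without WT replicate 1 and 0.18 with WT replicate 4 counted as cKO, so single libraries set its size. With the counts of Kng1 and Kng2 added, which leaves aside how reads were divided between them, cKO replicates 1 to 4 had 76.5, 74.6, 65.2 and 82.2 CPM and WT replicates 1 to 4 had 44.8, 48.1, 53.8 and 63.9 CPM. These sums, an alternative not planned beforehand, did not overlap between the groups, though cKO replicate 3 and WT replicate 4 were close, at 65.2 and 63.9 CPM. Of all single genes tested, 1.23% were without overlap and higher in cKO, and 3.5% in either direction. WT replicate 4 was the highest of WT, and the log2 fold change was 0.50 (edgeR adjusted p = 0.561, unadjusted p = 0.00185).

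Ahsg, Fetub and Hrg, the genes farthest from Adipoq, overlapped widely between the groups. Ahsg had 16.4, 10.3, 40.9 and 23.2 CPM in cKO replicates 1 to 4 and 10.7, 21.1, 39.8 and 11.1 CPM in WT replicates 1 to 4 (log2 fold change 0.14, 95% interval -1.30 to 1.58). Hrg had 2.10, 2.00, 5.97 and 4.08 CPM in cKO and 1.49, 3.43, 5.81 and 1.74 CPM in WT (log2 fold change 0.19, 95% interval -0.92 to 1.30). Fetub had 1.56, 0.799, 4.00 and 2.75 CPM in cKO and 1.399, 2.50, 2.68 and 0.981 CPM in WT (log2 fold change 0.28, 95% interval -0.73 to 1.30). In each of the 3, replicate 3 was the highest library of both groups, and the edgeR adjusted p lay between 0.965 and 0.985. Fetub rested on the fewest reads, 8 to 63 per library, and 8 counts carry an exact Poisson interval of 3.45 to 15.8, which covers counting error only. Their direction turned with single libraries: without cKO replicate 3 the log2 fold changes of Ahsg, Fetub and Hrg were -0.31, -0.13 and -0.19. Without WT replicate 1 those of Ahsg and Hrg were -0.08 and -0.05, and without WT replicate 4 that of Ahsg was -0.05.

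**Figure D2:**
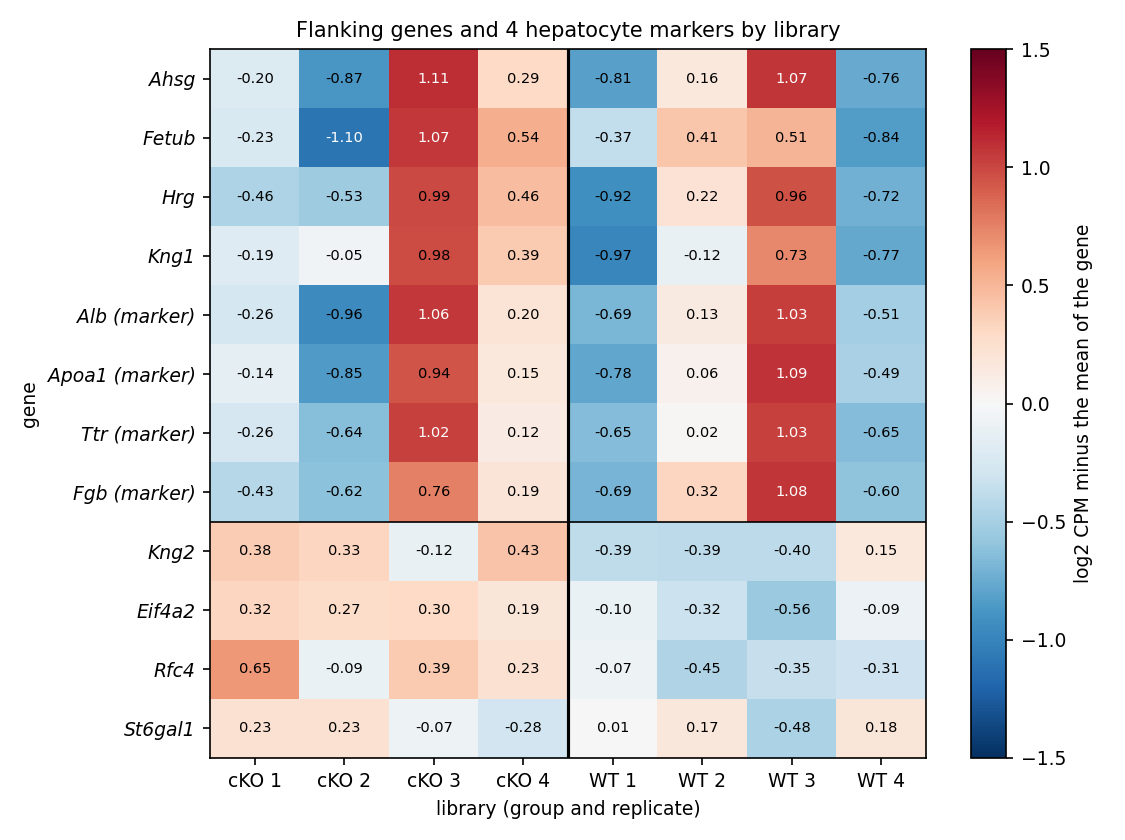
Log2 CPM of each gene minus its own mean over the 8 libraries (colour and printed value), for 4 flanking genes and 4 of the 14 listed hepatocyte markers above the line and the other 4 flanking genes below it; columns are cKO replicates, then WT replicates. Ahsg, Fetub, Hrg and Kng1 share the plotted markers' high values in cKO 3 and WT 3. Kng2, Eif4a2 and Rfc4 lie below their means in WT 3, while in cKO 3 Eif4a2 (0.30) and Rfc4 (0.39) lie above theirs.

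The 8 genes therefore fell into different patterns over the libraries. Likeness was measured as the root mean square difference of log2 CPM over the 8 libraries, after centring each gene on its mean. Ahsg and Hrg were 0.178 apart, Hrg and Kng1 0.244, and Ahsg and Fetub 0.296, whereas Kng2 was 0.724 to 0.920 from these 4 genes. Eif4a2 was 0.214 from Rfc4, 0.224 from Kng2 and 0.297 from St6gal1, while Kng2 and Rfc4 were 0.329 apart. Among all other genes, Eif4a2 ranked 174th in nearness to Kng2 and 12th in nearness to Rfc4, and Rfc4 ranked 449th in nearness to Eif4a2. Over the whole table, the 2 genes most like Ahsg were Serpina1b (0.0803) and Hpx (0.0924), those most like Hrg were Gc (0.114) and F2 (0.123), those most like Fetub were Hamp (0.219) and Slc15a3 (0.230), and those most like Kng1 were Cfhr2 (0.163) and Aass (0.199). Those most like Kng2 were Trak2 (0.110) and Srcin1 (0.125), and for Eif4a2 Bmpr1a (0.111) and Bend7 (0.114). For Rfc4 they were Retnla (0.131) and Cacnb4 (0.170), and for St6gal1 Ppwd1 (0.0546) and Wdfy2 (0.0692). With 8 libraries and 14552 other genes, close matches arise easily. For St6gal1, whose log2 range over the libraries was the narrowest of the 8, the closest of the other 7 was Eif4a2, which ranked only 4960th in nearness.

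Most of the listed liver transcripts moved with the first of these patterns. The 14 hepatocyte markers were all detected, summing to 783 to 1754 CPM in cKO and 917 to 1542 CPM in WT, with replicate 3 the highest in both groups. Alb, the albumin transcript that defines hepatocytes, stood at 174, 108, 436 and 241 CPM in cKO replicates 1 to 4 and at 130, 229, 429 and 147 CPM in WT replicates 1 to 4. Fat expresses Trf, Hp and Cyp2e1 of that list as well, and these 3 make up most of the sum in every library. In cKO replicate 1, Hp, Trf and Cyp2e1 held 363, 271 and 117 CPM of a sum of 1002 CPM. Cyp2e1 was lowest of all libraries in WT replicate 3, at 113 CPM, and Trf was lower there, at 245 CPM, than in WT replicate 2, at 272 CPM. Relative to Alb, a scale chosen after the values were seen, Ahsg was nearly constant in cKO, with 94.0, 95.6, 94.0 and 96.0 counts per 1000 Alb counts. In WT it ranged more widely, with 82.5, 92.1, 92.9 and 75.6. Its groups did not overlap, though cKO replicate 3 and WT replicate 3 were close, at 94.0 and 92.9. The 103 Ahsg counts of cKO replicate 2 carry an exact Poisson interval of 84.1 to 125. The cKO ratios thus lie closer together than counting error alone would give, and the lack of overlap rests partly on that closeness.

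Kng1 behaved otherwise on that scale. It had 40.4, 72.4, 36.7 and 44.0 counts per 1000 Alb counts in cKO replicates 1 to 4, and 31.2, 32.5, 31.3 and 31.9 in WT replicates 1 to 4. The WT libraries, WT replicate 4 included, lay close together and under every cKO library, with cKO replicate 2 the highest. These ratios rest on 104, 78, 252 and 143 Kng1 counts in cKO replicates 1 to 4 and 130, 104, 270 and 62 in WT. The 62 counts carry an exact Poisson interval of 47.5 to 79.5, so the WT ratios lie closer together than counting error alone would give. The nearest libraries of the groups were cKO replicate 3, at 36.7, and WT replicate 2, at 32.5. Means were 48.4 ± 16.3 in cKO and 31.7 ± 0.596 in WT (SD, n = 4 each). Hrg and Fetub overlapped, with 15.3 ± 2.97 and 9.23 ± 1.63 in cKO and 12.97 ± 1.62 and 8.66 ± 2.54 in WT. On this scale 0.117% of all other genes tested were without overlap and higher in cKO, 0.241% without overlap in either direction, and 0 of the other 13 hepatocyte markers were without overlap in either direction. The share over the table includes genes that do not follow Alb. No test was run on these ratios, and the part of the sequence Kng1 shares with Kng2 in them was not tested.

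**Figure D3:**
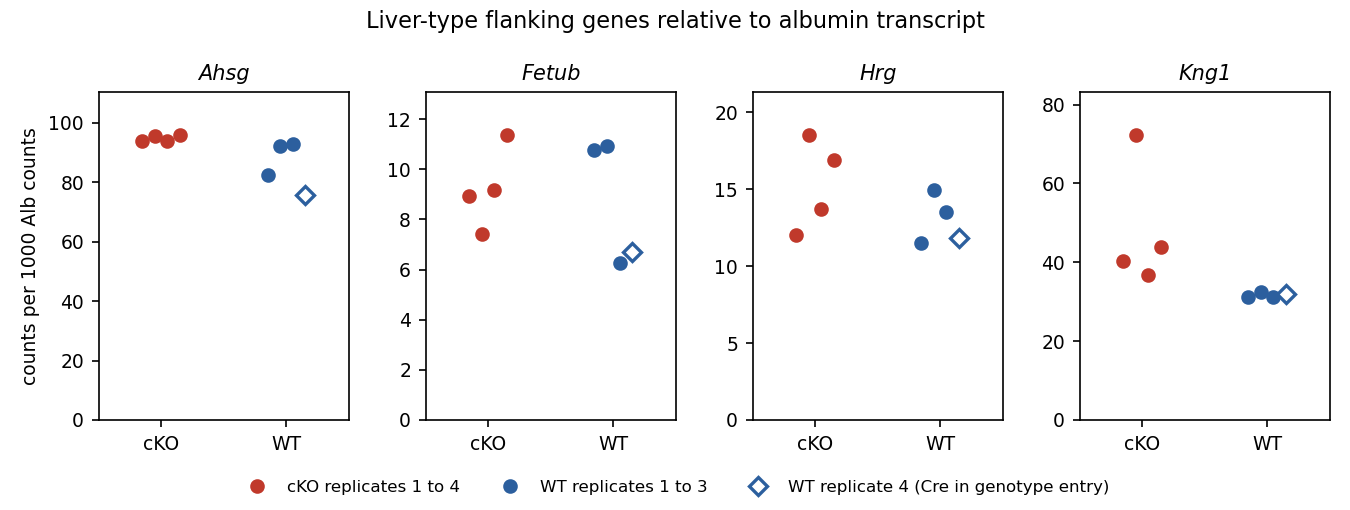
Counts of Ahsg, Fetub, Hrg and Kng1 per 1000 Alb counts of the same library, cKO (red) left of WT (blue), WT replicate 4 as an open diamond; each axis starts at 0. Kng1 lies between 31.2 and 32.5 in the 4 WT libraries and between 36.7 and 72.4 in the 4 cKO libraries.

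St6gal1 did not separate the groups. cKO replicates 1 to 4 held 16.1, 16.1, 13.01 and 11.2 CPM, and WT replicates 1 to 4 held 13.8, 15.4, 9.78 and 15.6 CPM. The ratio of cKO to WT was 1.03, with a 95% interval of 0.792 to 1.35 and an edgeR adjusted p of 0.983. Its log2 fold change turned to -0.02, -0.02 and -0.08 without cKO replicate 1, cKO replicate 2 or WT replicate 3.

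WT replicate 4 took no single side. For Kng2, Fetub and St6gal1, 3 of the 8 genes (37.5%), its value lay inside the cKO range and outside that of WT replicates 1 to 3, a position it held for 29.8% of all genes. For Fetub that place was below the other WT libraries, not above them. For Hrg, Kng1 and Rfc4 it lay inside the range of WT replicates 1 to 3 and outside that of cKO, for Ahsg inside both, and for Eif4a2 between them. It lay above WT replicates 1 to 3 in 3 of the 8 genes, Kng2, Eif4a2 and St6gal1, against 26.4% of all genes. Among the 3 genes with unadjusted p under 0.05, it was just above WT replicate 1 in Eif4a2 and at the WT level in Rfc4. In Kng2 it lay inside the cKO range, above cKO replicate 3 only. The part of its high muscle marker level in these places was not tested.

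**Figure D4:**
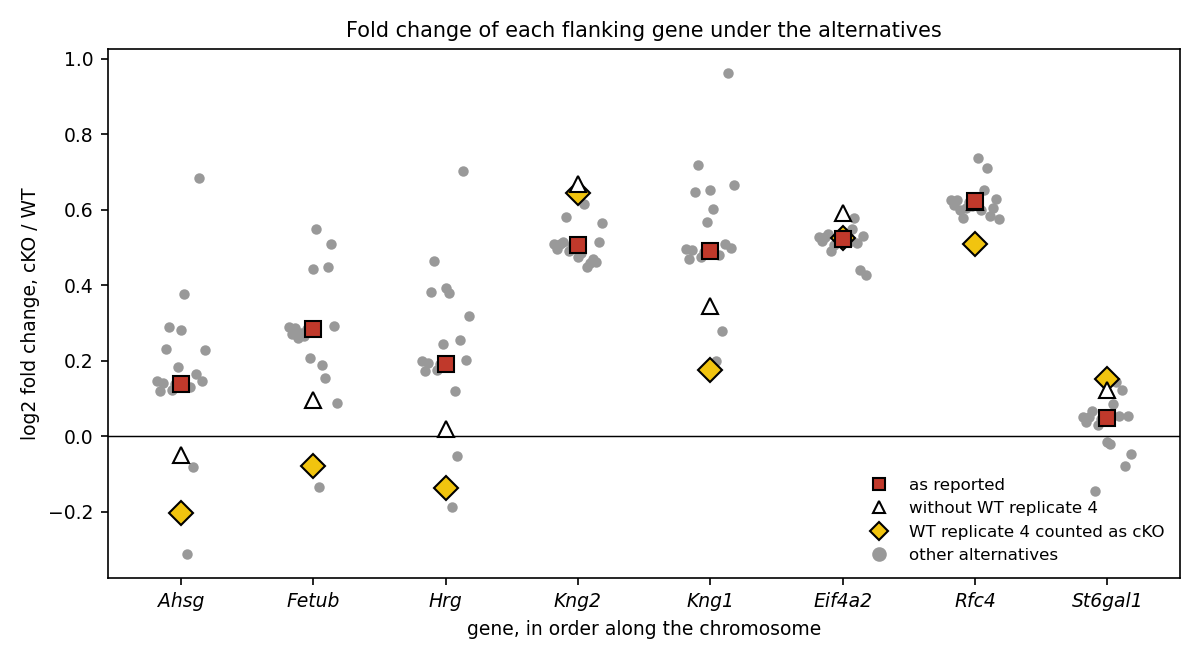
Log2 fold change (cKO over WT) of each flanking gene in chromosome order as reported (red squares), without WT replicate 4 (triangles), with that library counted as cKO (yellow diamonds) and under the other alternatives (grey). Kng2, Kng1, Eif4a2 and Rfc4 stay above 0 throughout, whereas Ahsg, Fetub, Hrg and St6gal1 cross it.

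With WT replicate 4 counted as cKO, Eif4a2 stood 0.53 (edgeR adjusted p = 0.685) and Rfc4 0.51 (edgeR adjusted p = 0.704) above WT on the log2 scale, and without that library they stood 0.59 and 0.62 above. Ahsg, Fetub and Hrg turned negative when it was counted as cKO, with -0.20, -0.08 and -0.14.

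Levels of different genes were compared as CPM per kilobase of merged exons. Eif4a2 came first with 74.8 ± 2.91 in cKO and 52.0 ± 7.64 in WT (SD, n = 4 each), and its lowest library was above the highest of each of the other 7 genes. Kng2 was next with 23.5 ± 3.75 in cKO and 16.6 ± 3.41 in WT, followed by Ahsg with 10.3 ± 6.03 and 9.41 ± 6.21. The ranges of Kng2 and Ahsg met in both groups. Rfc4 (4.02 ± 0.871 in cKO, 2.61 ± 0.306 in WT), Kng1 (3.19 ± 1.25 in cKO, 2.27 ± 1.32 in WT) and St6gal1 (2.87 ± 0.488 in cKO, 2.77 ± 0.548 in WT) did not differ from each other beyond their spread, and their order was not the same in cKO and WT. Hrg (1.77 ± 0.944 in cKO, 1.56 ± 0.999 in WT) and Fetub (1.16 ± 0.714 in cKO, 0.964 ± 0.423 in WT) were the lowest and overlapped too.

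**Figure D5:**
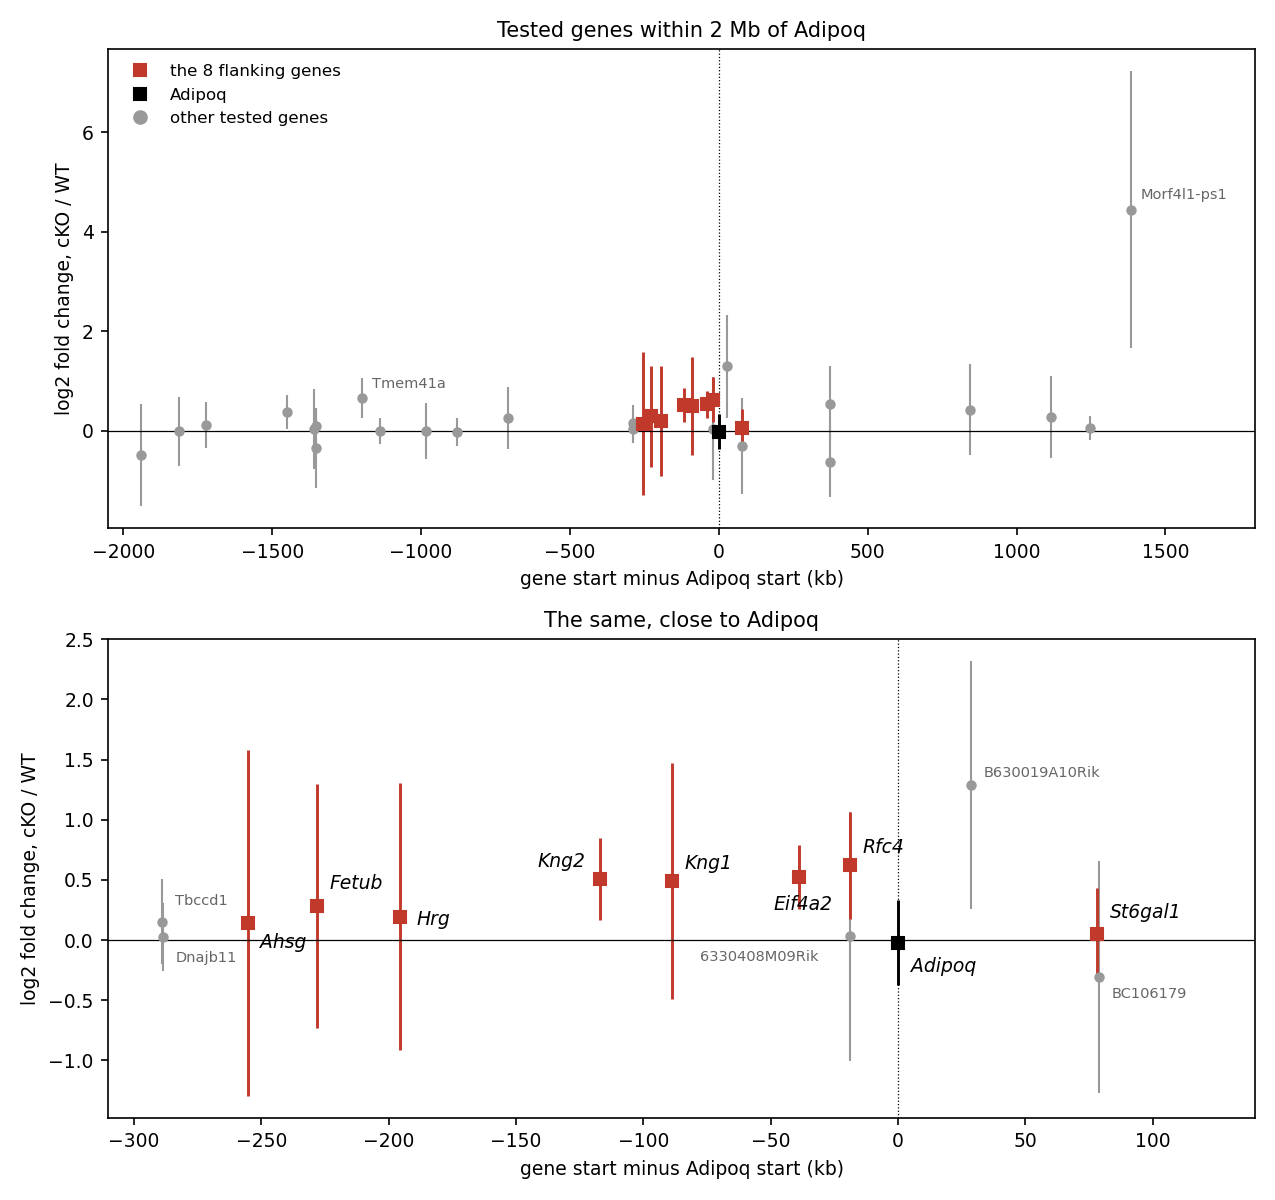
Log2 fold change (cKO over WT, with 95% intervals) against the distance in kb from the start of Adipoq, over 2 Mb either side (top) and close to Adipoq (bottom); squares are the 8 flanking genes (red) and Adipoq (black), grey points other tested genes. Of the 8, the genes from Kng2 to Rfc4 lie near 0.5 to 0.6, though the interval of Kng1 runs from -0.49 to 1.47. Adipoq and St6gal1 lie near 0. The noncoding 6330408M09Rik, which starts 18.7 kb before Adipoq, beside Rfc4, lies at 0.03. Its interval, -1.002 to 1.068, also holds 0.5 to 0.6, so it is not set apart from the genes beside it. Among the other genes, Morf4l1-ps1 at 4.44 and B630019A10Rik at 1.29 stand highest.

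Among the other genes whose start lies within 2 Mb of that of Adipoq, 87 were in the table and 23 passed the filter. By edgeR 0 of the 23 were called, their median log2 fold change was 0.05, and 15 were positive and 8 negative, against 51.8% positive over all genes. DESeq2 and edgeR without a count filter called 0 of these genes as well. At an unadjusted p under 0.05, 4 of the 23 were higher in cKO and 0 lower, where 2.15% of all genes were higher and 3.45% lower. The 4, named here after their values were seen, were B630019A10Rik, Tmem41a, 2510009E07Rik and Morf4l1-ps1. The nearest measured genes on each side were noncoding. Before Adipoq it was 6330408M09Rik, annotated as a noncoding RNA of a bidirectional promoter and starting 18.7 kb away. It had 1.69, 0.599, 0.381 and 1.04 CPM in cKO and 1.03, 0.572, 1.24 and 0.755 CPM in WT (log2 fold change 0.03, edgeR adjusted p = 0.996). These values rest on 6 to 33 counts per library. The interval of the fold change, -1.002 to 1.068, also holds the values of Rfc4 and Eif4a2, so a difference of their size is not excluded.

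Of the 23 genes, 2 were without overlap and higher in cKO, against 1.23% of all genes tested: Morf4l1-ps1, described below, and B630019A10Rik. B630019A10Rik lies 28.7 kb after Adipoq and is annotated as antisense. It had 1.29, 0.999, 1.78 and 0.891 CPM in cKO replicates 1 to 4 and 0.187, 0.715, 0.745 and 0.453 CPM in WT replicates 1 to 4 (edgeR log2 fold change 1.29, with a 95% interval of 0.26 to 2.32, an adjusted p of 0.882 and an unadjusted p of 0.0186). These values rest on 10 to 28 counts per library in cKO and 6 to 15 in WT. Of its 31-base sequences, 18.6% occur elsewhere, nearly all on the opposite strand in BC106179 at the start of St6gal1. Tmem41a, a membrane protein gene 1199 kb before Adipoq, had 12.5 ± 2.85 CPM in cKO and 7.94 ± 1.02 CPM in WT (SD, n = 4 each), a log2 difference of 0.65 that edgeR gave an adjusted p of 0.773. That size is near the 0.62 of Rfc4, but Tmem41a was picked after its values were seen and its groups overlapped. The cause of either difference was not tested. 2510009E07Rik, 1451.9 kb before Adipoq, was 0.37 higher on the log2 scale (edgeR adjusted p = 0.883). Morf4l1-ps1, a processed pseudogene, had 117 to 235 counts in cKO and 0 to 32 in WT, where 2 libraries are at 0. The edgeR log2 fold change was 4.44 (95% interval 1.65 to 7.23, adjusted p = 0.816), a size that rests on few WT counts. Of its sequence, 95.3% occurs in Morf4l1, so its counts are uncertain. Tbccd1 and Dnajb11, the measured genes next before Ahsg, had log2 fold changes of 0.15 and 0.02.

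The counts in the lists of genes that work with the 8 stand against 0.0687% of all genes called by edgeR, 0.316% by DESeq2 and 5.6% at an unadjusted edgeR p under 0.05 in either direction. Among 15 measured partners of Eif4a2 in translation initiation and mRNA turnover, edgeR called 0, 0 had an unadjusted p under 0.05, DESeq2 called 0, and the median log2 fold change was 0.01. Eif4g2 stood at 615 ± 55.2 CPM in cKO and 546 ± 57.7 CPM in WT, and Eif4g1, the scaffold of the cap-binding complex, at 439 ± 16.4 and 451 ± 94.6 CPM (SD, n = 4 each). Among 9 measured clamp loader and clamp genes edgeR called 0, 0 had an unadjusted p under 0.05 and DESeq2 called 0, with a median of -0.12. Rad17, the checkpoint clamp loader subunit, named after its values were seen, did not overlap between the groups, with 20.8 to 23.1 CPM in cKO and 16.3 to 20.6 CPM in WT (log2 fold change 0.16, edgeR unadjusted p = 0.177), a place that 1.23% of all genes shared. Rfc1, the large subunit of the complex that holds Rfc4, stood at 36.2 ± 2.29 CPM in cKO and 36.6 ± 2.34 CPM in WT, and Chtf8 at 33.5 ± 5.91 and 31.8 ± 9.41 CPM. Proliferating cell markers, which Rfc4 can accompany, summed to 2.00 to 5.46 CPM in cKO and 4.00 to 7.996 CPM in WT. The 3 that could be tested had negative log2 fold changes, 1 of them at an unadjusted edgeR p under 0.05.

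Of 6 measured kinin system genes edgeR and DESeq2 called 0, with 0 at an unadjusted edgeR p under 0.05 and a median of 0.16. Mme, a protease that degrades bradykinin, stood at 184 ± 18.2 CPM in cKO and 162 ± 35.0 CPM in WT, and Serping1, the inhibitor of plasma kallikrein, at 35.3 ± 11.6 and 29.3 ± 0.538 CPM. The list of cystatin relatives and liver-type plasma proteins, which holds Fetub, Ahsg and Hrg themselves, had 6 measured genes, 0 called by edgeR or DESeq2 and 1 lower at an unadjusted p under 0.05, as were 3.45% of all genes. A single gene in so short a list is no result about the list. The gene was Cstb, a protease inhibitor, with 25.0 ± 2.79 CPM in cKO and 30.4 ± 0.561 CPM in WT (edgeR adjusted p = 0.882), and Cst3 stood at 295 ± 33.8 and 339 ± 10.03 CPM. Of 16 measured genes of sialic acid transfer edgeR and DESeq2 called 0 and 1 was higher at an unadjusted edgeR p under 0.05, St3gal5, named after its value was seen (log2 fold change 0.42, edgeR adjusted p = 0.882), with a median of -0.06 over the list. In either direction 5.6% of all genes passed that level, so 1 of 16 is near the background. St6galnac6 had 70.7 ± 3.27 CPM in cKO and 79.9 ± 6.04 CPM in WT, and St3gal1 52.4 ± 13.2 and 43.0 ± 10.5 CPM.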

How the data were processed

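Polyadenylated RNA of 8 brown fat libraries was sequenced, 4 per group by title. The authors deposited estimated counts for 54385 Ensembl genes, and per the submitters' processing notes StringTie, Salmon, edgeR and GRCm38 were used; their versions, the annotation release and the strand setting were not given in the sources used here. Counts were rounded to whole numbers, and symbols and positions came from GENCODE M21 (GRCm38), which names 99.5% of the rows. Genes were kept with filterByExpr, scaled by TMM and tested over all genes by the robust quasi-likelihood method of edgeR 4.0.16 under R 4.3.3, with Benjamini-Hochberg adjustment and group as the only term; log2 CPM carries a prior count of 2. The test was tested on simulated data. Alternatives used DESeq2 1.42.0 and limma 3.58.1. The labels do not say that libraries came from separate mice, so the spread behind each p-value may be technical. The members and gene lists were chosen with earlier results of these data known. Named were the 8 genes, Adipoq, Adcy3, called or nearest genes within 2 Mb, of each related list up to 3 called or otherwise the 2 most abundant genes, and the 2 genes most like each of the 8.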

Additional observations from a re-analysis of the deposited data

Results flagged for a closer look

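Kng2 in WT replicate 4, at 59.3 CPM, stood far from WT replicates 1 to 3, at 40.4 to 40.7 CPM. WT replicates 1 to 3 lay closer together than counting error alone would give, and this flag rests partly on that closeness. Adcy3 in WT replicate 3, at 61.7 CPM, stood far below the other WT libraries, at 112 to 118 CPM. Both were found among 20 sets of 4 libraries (10 genes in 2 groups), in which chance marks about 1 in 20.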

How the results depend on the processing

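Over all genes, edgeR called 10, against 46 with DESeq2, 93 without a count filter and 1 with WT replicate 4 counted as cKO. Of the 8 flanking genes 0 were called, against 1, Eif4a2, with DESeq2 and 1 without a count filter; 0 were called under the other alternatives run. Leaving out 1 library at a time moved the log2 fold change of Ahsg between -0.311 and 0.684, Fetub between -0.134 and 0.550, Hrg between -0.186 and 0.703, St6gal1 between -0.078 and 0.143 and Adipoq between -0.161 and 0.100. Counting WT replicate 4 as cKO gave -0.204, -0.079 and -0.136 for Ahsg, Fetub and Hrg. St6gal1 was -0.145 with library quality weights in limma-voom and -0.046 without both libraries numbered 3, an alternative chosen after seeing the data. The cause of these turns was not tested. Same-numbered libraries did not consistently deviate together, with correlations of -0.464, 0.0350, 0.409 and 0.0016 for replicates 1 to 4. Differently numbered ones ran from -0.566 to 0.469, so the numbers were not taken as pairs. With a replicate block 0 flanking genes and 7 genes in all were called, and Adcy3 had -2.23 (edgeR adjusted p = 0.225). Kng1 then had 0.57 (edgeR adjusted p = 0.788, unadjusted p = 0.0239). With the longest transcript as length, 6 of the 8 genes kept their place in the order of levels. Depth limits Fetub, at 8 to 63 counts per library, the most.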
